A study of Xenopus laevis with 72 samples.

Results

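Kmt2b knockdown was compared with a control knockdown in Xenopus laevis (African clawed frog) embryos at 5.5 hours post fertilization (hpf), the earliest of 3 time points sampled around the start of zygotic transcription. The comparison was defined by the sample labels alone and took in 12 of the 72 libraries of the series: 6 from embryos injected with a morpholino against kmt2b (Kmt2b MO) and 6 from embryos injected with a standard control morpholino (Ctrl MO). The remaining libraries came from embryos injected with a morpholino against cxxc1 (Cxxc1 MO), from non-injected embryos (NI Ctrl), and from all 4 groups at 6.5 and 7.5 hpf, and they were used here only to set values beside those of the 12. All embryos were wild type, were made by in vitro fertilization and were kept at 18 °C. Injected embryos received 9.2 nl of a 1 mM morpholino at the 1-cell stage. The Kmt2b morpholino was designed to block translation from both kmt2b homeologs, so the level of its own mRNA does not report the knockdown, and Kmt2b protein was not measured in these libraries. The paper reports lower Kmt2b protein on Western blots of knockdown embryos. It also states that, for technical reasons, no rescue of the Kmt2b knockdown was possible. In each of 2 biological replicates (different frogs), every group and time point had 3 sets of 3 pooled embryos. A set was sequenced as 1 library of rRNA-depleted total RNA, here written I.1 to I.3 for the first biological replicate and II.1 to II.3 for the second. Because the sets of a biological replicate are siblings, and the study treats them as technical replicates, the p-values below mostly measure the spread between sets within 2 clutches.

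Kmt2b (also called MLL2) is a histone methyltransferase that places methyl groups on lysine 4 of histone H3, a mark of promoters. It carries a CXXC zinc finger that binds unmethylated CpG dinucleotides, and in mouse oocytes and embryonic stem cells it can act without ongoing transcription. An early frog embryo lives on RNA and protein loaded into the egg, divides rapidly and begins broad transcription of its own genome at the midblastula stage, when many maternal transcripts are cleared. Xenopus laevis is an allotetraploid, so most genes are present as 2 homeologs, one on an L chromosome and one on an S chromosome.

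Abundance was measured as TPM (a transcript's share of all transcripts, in parts of 1000000), which divides by transcript length and gives every library an equal sum, so the number of reads behind a value is unknown. From 18141 to 18933 genes reached 1 TPM in Kmt2b MO libraries, against 18168 to 18900 in Ctrl MO libraries. The summed TPM of 6 oocyte and egg genes ran from 1420 to 1650 in Kmt2b MO libraries and from 1500 to 1600 in Ctrl MO libraries. The marker genes of sperm, of red blood cells, and of follicle and liver never exceeded a sum of 6.24 TPM in either group, and 2 of 7 red blood cell entries and 3 of 8 follicle and liver entries were at 0 in all 12 libraries. Small structural RNAs were counted as a class that includes snRNA, snoRNA and also rRNA entries. They took 10.05% to 17.2% of the TPM in Kmt2b MO libraries I and 10.13% to 17.4% in Ctrl MO libraries I. In the second biological replicate they took 3.77% to 6.04% in Kmt2b MO libraries and 6.54% to 8.62% in Ctrl MO libraries, without overlap. Entries of kmt2b and of cxxc1.L were not analysed here, and cxxc1.S did not pass the test (log2 fold change -0.03, SE 0.05, adjusted p 0.938, limma).

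At 5.5 hpf nearly all called changes in Kmt2b MO embryos were increases, and most of these were small. Of 17829 genes tested, 115 (0.645%) were higher and 8 (0.0449%) were lower in Kmt2b MO than in Ctrl MO embryos at an adjusted p under 0.05 (limma on log2(TPM + 1), Benjamini-Hochberg over all genes tested). At an unadjusted p under 0.05, the counts were 1011 higher and 351 lower. In whole embryos, a change in the number of cells that hold a transcript and a change in its level per cell cannot be told apart. The median log2 fold change over all genes tested was -0.00 and the median SE was 0.07. Of the 115 higher genes, 90 were under 1.5-fold, and the smallest called change was 1.18-fold. In 103 of them all 3 Kmt2b MO libraries lay above all 3 Ctrl MO libraries within both biological replicates, a pattern that 219 (1.23%) of all genes tested showed. All 8 lower genes were separated in the same way, downward, as were 33 (0.185%) of all genes tested. The calls come from the same libraries, so the separation of called genes largely follows from the call. The higher genes were well expressed, with a median of 41.6 TPM in Ctrl MO embryos against 25.6 TPM over all genes tested. Leaving out 1 library moved the count of higher genes. It was 66, 62 and 67 without Kmt2b MO library I.2, II.1 or II.2, and 68, 65 and 65 without Ctrl MO library I.3, II.2 or II.3. Without Ctrl MO library I.1 it was 170.

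**Figure D1:**
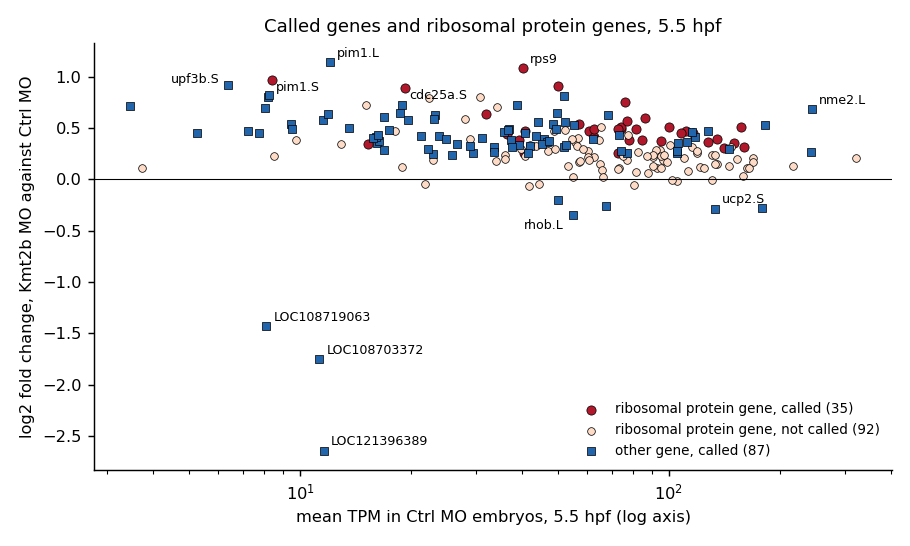
Log2 fold change on the log2(TPM + 1) scale of Kmt2b MO against Ctrl MO embryos at 5.5 hpf (vertical axis) by mean TPM in Ctrl MO embryos (horizontal log axis), for ribosomal protein genes that were called (filled red circles) or not called (pale circles) and for the other called genes (blue squares). Called points lie mostly between 0.24 and 1.14 above the zero line, 120 of 127 ribosomal protein genes are above it, and LOC121399240, listed at 0 in Ctrl MO embryos, cannot be drawn on the log axis.

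The clearest group among the higher genes was made of cytoplasmic ribosomal proteins, the protein parts of the ribosome. Of 127 tested entries named rpl or rps, 35 (27.6%) were higher, against 0.645% of all genes tested, and the list had no called lower entry. At an unadjusted p under 0.05, 87 entries were higher and 0 lower. Their median log2 fold change was 0.27, and the range was -0.06 to 1.08. The change was positive for 120 entries (94.5%), against 47.7% of all genes tested. The median level over the entries was 87.3 TPM in Kmt2b MO embryos and 74.1 TPM in Ctrl MO embryos. A list of 10 ribosomal protein genes whose names do not follow the pattern, drawn up after the values had been seen, held 4 higher entries (rplp0.L, rplp0.S, fau.L and rpsa.S) and had a median log2 fold change of 0.43.

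The shift could be followed library by library. Relative to the Ctrl MO mean of the same biological replicate, the median difference over the 127 entries was 0.26, 0.49 and 0.27 in Kmt2b MO libraries I.1 to I.3, against 0.17, -0.07 and -0.08 in Ctrl MO libraries I.1 to I.3 (log2 scale). It was 0.31, 0.29 and 0.13 in Kmt2b MO libraries II.1 to II.3, against 0.05, -0.03 and -0.03 in Ctrl MO libraries II.1 to II.3. The 2 groups did not overlap in either biological replicate, and Ctrl MO library I.1 was the closest to the Kmt2b MO libraries. The median difference was 0.26, 0.33 and 0.21 in Cxxc1 MO libraries I.1 to I.3 and 0.31, 0.32 and 0.24 in Cxxc1 MO libraries II.1 to II.3, which overlapped Kmt2b MO and were all above Ctrl MO. Summed over the entries, ribosomal protein transcripts made up 1.05%, 1.24% and 1.05% of the TPM in Kmt2b MO libraries I and 1.42%, 1.38% and 1.26% in Kmt2b MO libraries II. The corresponding shares in Ctrl MO libraries were 0.983%, 0.851% and 0.833% in I and 1.19%, 1.13% and 1.12% in II. Small RNA shares also differed between the groups in the second biological replicate, and TPM was in addition rescaled over protein-coding genes only. The median log2 fold change of the 127 entries was then 0.27, with 60 called higher. Calls also rose over all genes, to 216 of 16786 higher. The part played by small RNA shares was not tested.

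The same entries were less distinct when non-injected embryos stood in for the Ctrl MO. The median difference from the Ctrl MO mean was 0.21, 0.10 and 0.22 in NI Ctrl libraries I.1 to I.3 and 0.20, 0.02 and -0.23 in NI Ctrl libraries II.1 to II.3. On these values NI Ctrl overlapped Kmt2b MO in II and overlapped Ctrl MO in both. The overlap in I came from NI Ctrl library I.2 and Ctrl MO library I.1. Over all genes tested, the medians of these libraries were -0.07 and 0.08. NI Ctrl library II.3 stood apart, with small RNAs at 19.6% of its TPM and a median of -0.22 over all genes tested. The ribosomal protein medians were not adjusted for such library-wide shifts. Against NI Ctrl, Kmt2b MO embryos had 10 ribosomal protein entries higher (7.87%, against 0.495% of all genes tested) and a median log2 fold change of 0.18. Ctrl MO embryos had a median of -0.09 against NI Ctrl, with 0 of the entries called. Over all genes tested, both medians against NI Ctrl were 0.05. These values include NI Ctrl library II.3, and no fit without it was made for the ribosomal protein entries. The number called against Ctrl MO was 19, 20 and 21 without Kmt2b MO library I.2, II.1 or II.2, and 22, 21, 21 and 22 without Ctrl MO library I.2, I.3, II.2 or II.3.

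**Figure D2:**
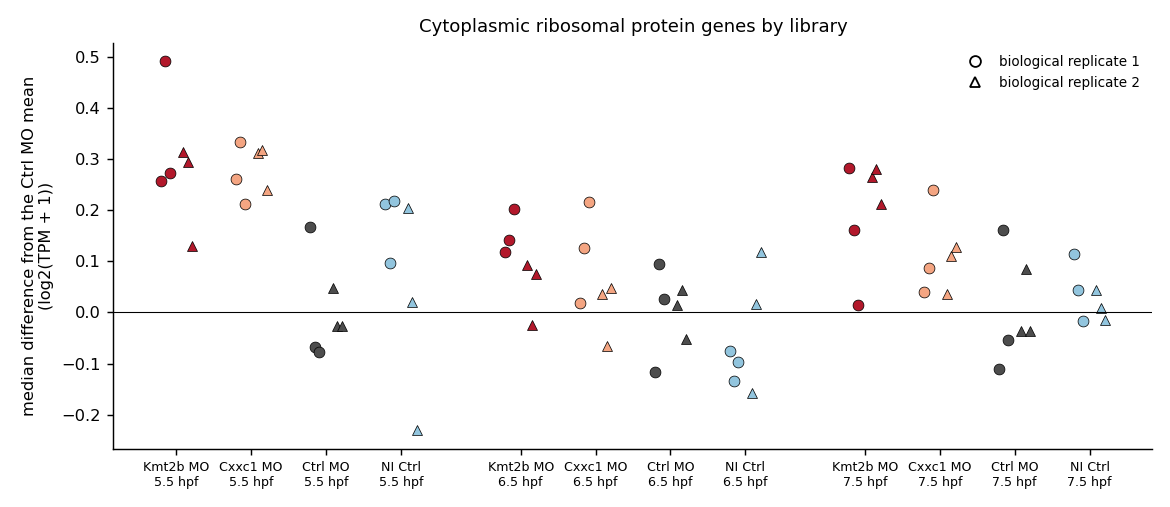
Median over 127 ribosomal protein genes of the difference from the Ctrl MO mean in that biological replicate at that hour (vertical axis, log2(TPM + 1)), 1 point per library, for Kmt2b MO, Cxxc1 MO, Ctrl MO and NI Ctrl embryos at 5.5, 6.5 and 7.5 hpf. At 5.5 hpf the Kmt2b MO points run from 0.13 to 0.49, the Cxxc1 MO points from 0.21 to 0.33 and the Ctrl MO points from -0.08 to 0.17, with Kmt2b MO and Ctrl MO separate within each biological replicate, and NI Ctrl points lie across both.

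Among single ribosomal protein genes, the largest change was that of rps9 (chromosome 7S, 97843870 to 97851396, assembly Xenopus_laevis_v10.1), a small subunit protein. Its level was 75.0, 87.0, 69.3, 98.6, 98.3 and 81.8 TPM in Kmt2b MO libraries I.1 to II.3, against 45.5, 29.2, 29.2, 43.7, 41.3 and 52.0 TPM in the Ctrl MO libraries. No Ctrl MO library reached the lowest Kmt2b MO library, and the log2 fold change was 1.08 (SE 0.11, adjusted p 0.000748). The entries rps9.L and rps9.S carry the same protein name and had log2 fold changes of 0.97 (adjusted p 0.0291) and 0.80 (adjusted p 0.0526), and reads may be split between the 3 entries. The call of rps9.L was lost in 8 of the 12 fits that left out 1 library.

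rplp0.L (chromosome 1L, 164248303 to 164253942) encodes the stalk protein of the large subunit. It stood at 78.8, 93.3, 87.4, 106.3, 95.2 and 88.8 TPM in Kmt2b MO libraries, against 53.4, 39.8, 48.2, 55.9, 57.4 and 57.9 TPM in Ctrl MO libraries. The groups were far apart, with a log2 fold change of 0.81 (SE 0.07, adjusted p 0.00027), and its partner rplp0.S rose by 0.54 (adjusted p 0.00278). NI Ctrl libraries had 45.7 to 60.8 TPM of rplp0.L, within or just above the Ctrl MO range.

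Other named ribosomal protein genes were higher as well. rps23.L, of the small subunit, was at 68.9 to 83.9 TPM in Kmt2b MO libraries I and 101.1 to 117.4 TPM in II, against 26.0 to 50.4 TPM and 56.0 to 65.2 TPM in Ctrl MO libraries, and its log2 fold change was 0.91 (SE 0.12, adjusted p 0.0042). rps3.S, also of the small subunit, was at 23.2 to 33.2 TPM and 37.7 to 47.2 TPM in Kmt2b MO libraries, against 11.4 to 17.1 TPM and 21.3 to 27.2 TPM in Ctrl MO libraries, a log2 fold change of 0.89 (SE 0.11, adjusted p 0.0027). For the large subunit gene rpl30.L the values were 113.8 to 119.0 TPM and 128.8 to 137.9 TPM in Kmt2b MO libraries, against 52.7 to 60.9 TPM and 88.2 to 104.8 TPM in Ctrl MO libraries (log2 fold change 0.76, SE 0.09, adjusted p 0.00149). In each of the 3 genes the groups were separate within both biological replicates. Against NI Ctrl, rps23.L and rps3.S were also higher (0.74 and 0.75, adjusted p 0.00269 and 0.015), while rpl30.L was at 0.52 with an adjusted p of 0.173.

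Genes around the ribosome showed fewer calls than the ribosomal proteins themselves. rack1.L, a scaffold protein that sits on the small subunit, was at 97.1, 102.2, 92.8, 116.9, 107.8 and 110.5 TPM in Kmt2b MO libraries, against 60.7, 50.2, 58.1, 80.8, 81.8 and 79.5 TPM in Ctrl MO libraries. The groups did not overlap, and its log2 fold change was 0.62 (SE 0.06, adjusted p 0.000751). Of 90 translation initiation and elongation factors, a list added after the values had been seen, 2 were higher: eef1b2.L, which recharges the elongation factor that brings tRNA to the ribosome (0.27, adjusted p 0.00884), and eif3g.S, a subunit of initiation factor 3 (0.45, adjusted p 0.0387). The higher ones made up 2.22% of this list, against 0.645% of all genes tested. The median log2 fold change of the list was 0.02, close to that of all genes tested. Of 87 mitochondrial ribosomal proteins, also listed afterwards, mrpl21.L (0.63, adjusted p 0.0117) and mrpl33.L (0.48, adjusted p 0.0377) were higher and mrpl40.S was lower, with a median of 0.06. In that list 2.3% were called higher, and 73.6% had a positive change, against 47.7% of all genes tested.

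Nuclear genes of the respiratory chain leaned upward without many calls. Of 131 entries, 110 had a positive change and the median log2 fold change was 0.12, but 3 were called (2.29%, against 0.645% of all genes tested): ndufs4.L and ndufb8.S, accessory subunits of complex I, and atp5pb.L, of the ATP synthase. The median difference from the Ctrl MO mean was 0.06, 0.27 and 0.03 in Kmt2b MO libraries I.1 to I.3, against 0.08, -0.00 and -0.05 in the Ctrl MO libraries, and 0.16, 0.15 and 0.09 in Kmt2b MO libraries II.1 to II.3, against 0.03, 0.01 and -0.03. The groups overlapped in the first biological replicate and were separate in the second, and NI Ctrl libraries reached 0.14 in both. ndufs4.L was at 14.5, 13.3, 12.4, 15.4, 17.1 and 18.5 TPM in Kmt2b MO libraries, against 7.13, 6.92, 8.58, 10.7, 10.7 and 5.54 TPM in Ctrl MO libraries. The groups were separate, with a log2 fold change of 0.83 (SE 0.13, adjusted p 0.011). Of 66 proteasome subunits, psmd14.L (0.72, adjusted p 0.0472), psma7.L (0.36, adjusted p 0.00884) and psma4.L (0.32, adjusted p 0.0318) were higher, and the median of the list was 0.05. The higher subunits made up 4.55% of the list. psmd14.L, the deubiquitinase of the proteasome lid, was expressed at only 4.72 to 8.28 TPM in Kmt2b MO libraries and 2.14 to 4.99 TPM in Ctrl MO libraries, and its call was lost with a pseudocount of 0.1 (adjusted p 0.0541) and in 10 of the 12 fits that left out 1 library.

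The gene with the smallest p was nme2.L, a nucleoside diphosphate kinase. Its level was 363, 373.1, 360.1, 415, 425.8 and 407.1 TPM in Kmt2b MO libraries, against 219.8, 200.9, 212.6, 294.5, 272.6 and 268.2 TPM in Ctrl MO libraries. Every Kmt2b MO library was above every Ctrl MO library of either biological replicate, with a log2 fold change of 0.68 (SE 0.05, adjusted p 3.94e-05). It was chosen for its p-value after the values had been seen.

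The largest called increase of a symbol-bearing gene was that of pim1.L (chromosome 4L, 137466268 to 137476787), a serine/threonine kinase known in mammals as a proto-oncogene. pim1.L was at 23.1, 22.5, 20.0, 35.6, 35.4 and 34.2 TPM in Kmt2b MO libraries, against 11.7, 13.6, 9.58, 11.3, 12.5 and 13.7 TPM in Ctrl MO libraries. The groups were widely separate, at a log2 fold change of 1.14 (SE 0.11, adjusted p 0.000536). Its homeolog pim1.S rose as well, to 9.50, 10.5, 11.2, 21.1, 19.6 and 21.0 TPM in Kmt2b MO libraries, against 5.65, 7.37, 5.79, 8.55, 10.3 and 11.5 TPM in Ctrl MO libraries (log2 fold change 0.81, SE 0.09, adjusted p 0.00149). In NI Ctrl libraries pim1.L ran from 9.37 to 13.5 TPM, close to the Ctrl MO range.

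upf3b.S (chromosome 8S, 68214241 to 68224067) encodes a factor that links exon junctions to nonsense-mediated mRNA decay. It was at 8.34, 7.80, 9.25, 21.8, 17.1 and 18.1 TPM in Kmt2b MO libraries, against 5.56, 4.39, 5.18, 7.23, 7.16 and 8.84 TPM in Ctrl MO libraries. The groups did not overlap within either biological replicate, and the log2 fold change was 0.92 (SE 0.11, adjusted p 0.00235). Of the 29 genes listed for this decay pathway, the other one called was upf1.L, the central RNA helicase (0.28, adjusted p 0.0376), and the median of the list was -0.01. The 2 higher genes made up 6.9% of the list, against 0.645% of all genes tested.

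cdc25a.S (chromosome 6S, 3511830 to 3519058) encodes a phosphatase that activates cyclin-dependent kinases and drives the rapid early cleavages. Its level was 25.0, 23.7, 21.5, 46.0, 43.3 and 41.6 TPM in Kmt2b MO libraries, against 21.5, 19.3, 16.1, 19.4, 19.1 and 18.2 TPM in Ctrl MO libraries. The lowest Kmt2b MO library in I only just exceeded the highest Ctrl MO library, while in II the groups were far apart. The log2 fold change was 0.30 in the first biological replicate, 1.16 in the second and 0.73 (SE 0.14, adjusted p 0.0331) over both, and the call was lost in 7 of the 12 fits that left out 1 library. Of 64 cyclins and cell cycle checkpoint genes, ccnb3.S, a B-type cyclin, was the other one called (0.32, adjusted p 0.04). Higher genes made up 3.12% of this list, against 0.645% of all genes tested. Among 46 DNA replication genes, gins1.S, a part of the replicative helicase (0.48, adjusted p 0.00884), and pcna.S, the sliding clamp (0.36, adjusted p 0.0184), were higher, with a list median of 0.05. These 2 made up 4.35% of the replication list.

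Of 54 tested entries on the list of early zygotic patterning genes, rnd1.S and rhob.S were higher and rhob.L was lower. The higher ones made up 3.7% of the list, against 0.645% of all genes tested, of which 0.0449% were lower. rnd1.S, which in Xenopus loosens cell adhesion, was at 72.0, 68.9, 67.4, 84.8, 87.0 and 88.6 TPM in Kmt2b MO libraries, against 50.4, 50.0, 46.9, 56.6, 59.7 and 50.5 TPM in Ctrl MO libraries. No libraries overlapped, and the log2 fold change was 0.56 (SE 0.05, adjusted p 0.000243). Some other called genes are described here singly and stand for no group. Among them were fgfr4.L, a fibroblast growth factor receptor (0.41, adjusted p 0.00235), and acvr1b.L, a receptor for activin and Nodal signals (0.48, adjusted p 0.0309). tcf7.S, a transcription factor of Wnt signalling, rose by 0.25 (adjusted p 0.0356). myd88.S, an adaptor of Toll-like and interleukin-1 receptors, had a log2 fold change of 0.63 (SE 0.10, adjusted p 0.00938). These 4 were picked after their values had been seen.

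**Figure D3:**
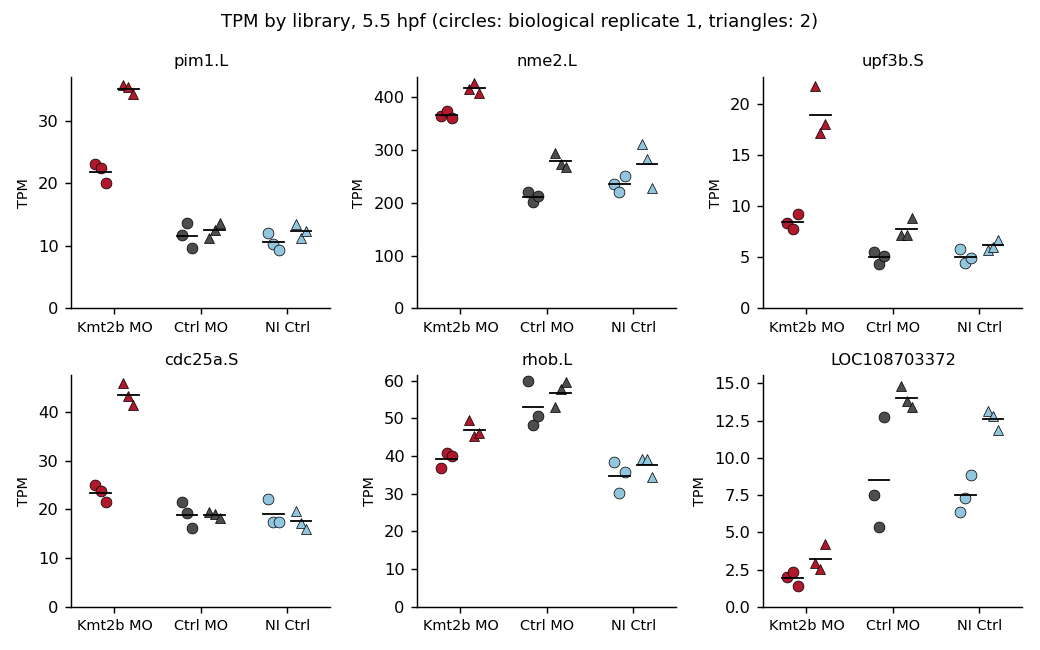
TPM in each library at 5.5 hpf (vertical axes, from 0) of pim1.L, nme2.L, upf3b.S, cdc25a.S, rhob.L and LOC108703372 in Kmt2b MO, Ctrl MO and NI Ctrl embryos, with circles for the first and triangles for the second biological replicate and a bar at each mean of 3 libraries. Kmt2b MO points of pim1.L lie at 20.0 to 35.6 TPM, above all others of that gene, and rhob.L in Kmt2b MO embryos lies between Ctrl MO and NI Ctrl.

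Only 8 genes were lower in Kmt2b MO embryos. The strongest of those above 0 in every library was LOC108703372, a protein-coding gene without a symbol (chromosome 7S, 45148440 to 45152733), chosen after its values had been seen. It was at 1.98, 2.36, 1.39, 2.93, 2.54 and 4.25 TPM in Kmt2b MO libraries, against 7.53, 5.33, 12.8, 14.9, 13.8 and 13.4 TPM in Ctrl MO libraries. Every Kmt2b MO library was below every Ctrl MO library, and the log2 fold change was -1.75 (SE 0.17, adjusted p 0.000536). NI Ctrl libraries had 6.36 to 13.1 TPM, and against them the log2 fold change was -1.63 (adjusted p 2.39e-05).

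The 5 lower genes with a symbol changed little. rhob.L was at 36.8, 40.7, 40.0, 49.5, 45.3 and 46.1 TPM in Kmt2b MO libraries, against 59.9, 48.2, 50.6, 53.0, 57.8 and 59.6 TPM in Ctrl MO libraries. The groups were separate within each biological replicate, with a log2 fold change of -0.34 (SE 0.06, adjusted p 0.0187). The direction depended on the control: NI Ctrl libraries had 30.3 to 39.2 TPM, and against them rhob.L in Kmt2b MO embryos was at +0.24 (adjusted p 0.188), because Ctrl MO embryos themselves were higher than NI Ctrl by 0.59 (adjusted p 0.0066). ucp2.S, a mitochondrial carrier, fell by 0.29 (adjusted p 0.00719), rrm1.S, the large subunit of ribonucleotide reductase, by 0.28 (adjusted p 0.0432), trappc13.S, of a vesicle tethering complex, by 0.26 (adjusted p 0.0387) and mrpl40.S by 0.20 (adjusted p 0.0473). In all 4 the libraries were separate within both biological replicates, but against NI Ctrl only trappc13.S passed the test (-0.32, adjusted p 0.0182). Of the 12 fits that left out 1 library, the call was lost in 3 for rhob.L, 10 for rrm1.S, 9 for trappc13.S and 11 for mrpl40.S. ucp2.S kept its call in all 12 but lost it with 24 or 72 libraries in the fit (adjusted p 0.0725 and 0.137). psmc2.L, an ATPase of the proteasome base, had a log2 fold change of -0.38 and missed the threshold (adjusted p 0.0547).

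Both remaining lower genes, and 5 of the higher ones, were noncoding RNAs. Of 526 lncRNAs tested, 4 (0.76%) were higher, against 0.645% of all genes tested, and 1 was lower. The higher ones were LOC108708564 (log2 fold change 0.73, adjusted p 0.00452), LOC108711627 (0.54, adjusted p 0.018), LOC108706498 (0.45, adjusted p 0.0187) and LOC108710532 (0.34, adjusted p 0.0452). The lower lncRNA LOC108719063 was at 0.521, 1.01, 0.829, 3.32, 3.11 and 2.60 TPM in Kmt2b MO libraries, against 2.44, 3.21, 4.89, 19.7, 4.12 and 14.3 TPM in Ctrl MO libraries. It was separate within each biological replicate (log2 fold change -1.43, SE 0.28, adjusted p 0.0356). The snoRNA LOC121396389 was listed at 0 in 4 Kmt2b MO libraries and at 6.70 and 4.63 TPM in the others, against 7.21 to 21.9 TPM in Ctrl MO libraries. The snoRNA LOC121399240 was at 11.4 to 24.3 TPM in 5 Kmt2b MO libraries and listed at 0 in library II.3, against 0 in all 6 Ctrl MO libraries. Of 316 snoRNAs tested these were the 2 called ones, and no fold change is given for either because of the values at 0. LOC121399240, which is counted among the higher genes, passed the filter of 1 TPM only through the Kmt2b MO libraries.

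Genes that write, erase or read chromatin marks were called about as rarely as genes in general, of which 0.645% were higher and 0.0449% lower. Of 34 genes of the H3K4 methyltransferase complexes, 1 was higher (kmt2e.S, a SET domain protein, 0.36, adjusted p 0.0117), and the list median was -0.05. kmt2e.S was at 18.4 to 24.7 TPM in Kmt2b MO libraries and 15.0 to 17.5 TPM in Ctrl MO libraries, without overlap. None of 42 Polycomb genes, 9 H3K4 demethylases, 18 DNA methylation and CpG reader genes or 50 histone chaperones and linker histones was called by limma. At an unadjusted p under 0.05 these lists held 3, 0, 2 and 2 genes, and their medians lay between -0.03 and 0.02.

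None of 46 factors of genome activation was called by limma (4 at an unadjusted p under 0.05), where 0.645% of all genes tested were higher and 0.0449% lower. Their median log2 fold change was -0.06, and 2 of them (4.35%) had a positive change, against 47.7% of all genes tested. The median was -0.11 in the first biological replicate and -0.00 in the second, against -0.03 and 0.02 over all genes tested. It lay below that of all genes in both, by more in the first. A difference between the biological replicates was not tested for the list. Positive changes were also few among H3K4 methyltransferase complex genes (17.6%) and H3K4 demethylases (22.2%). They made up 26.7% of the genes of maternal mRNA translation and decay. Polycomb genes had 47.6%, and DNA methylation and CpG reader genes 72.2%. pou5f3.2.L and pou5f3.2.S, of the Oct4 family of activators, had log2 fold changes of -0.10 and -0.26 (adjusted p 0.781 and 0.746). sox3.L and sox3.S, which act with them, were at -0.04 and -0.06 (adjusted p 0.887 and 0.844). The 54 early zygotic patterning genes that could be tested, out of 206 entries, had a median of -0.04. None of 68 Mediator and TFIID genes, 51 germ plasm and axis determinants, 105 genes of maternal mRNA translation and decay, 26 p53 pathway genes or 19 innate immune genes was called by limma, with 7, 3, 5, 1 and 1 at an unadjusted p under 0.05. The innate immune list does not hold myd88.S, the called adaptor described above. For lists of this size a count of 0 is close to the share over all genes tested.

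Genes were also sorted by their own course in non-injected embryos between 5.5 and 7.5 hpf. Of 1054 genes that at least doubled in NI Ctrl embryos over that time, only 470 passed the filter at 5.5 hpf and could be tested. Of the 470, 2 were higher and 2 were lower in Kmt2b MO embryos at 5.5 hpf, and the median log2 fold change was 0.02. The higher ones and the lower ones each made up 0.426% of these genes. Over all genes tested, 0.645% were higher and 0.0449% were lower. Among the 171 protein-coding ones, 1 was higher and the median was -0.02. Of 12967 genes that fell in NI Ctrl embryos by at least 0.5 on the log2 scale, 49 (0.378%) were higher and 4 were lower, with a median of -0.01, so neither sorting gave a larger share of higher genes than all genes tested. The 127 ribosomal protein entries mostly did not fall in NI Ctrl embryos: their median change from 5.5 to 7.5 hpf was 0.26, against -0.82 over all genes, and 6 of them belonged to the falling genes. The 76 higher genes outside the ribosomal protein lists had a median NI Ctrl change of -0.69. Of the 75 whose course could be tested, 49 (65.3%) were falling, against 12967 of 17332 (74.8%) over all genes.

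Homeologs of the called genes mostly moved the same way, though in some pairs by different amounts. Both copies could be tested for 4331 pairs, and in 64 of these a copy was called higher. In 11 pairs both copies were higher, and in 52 pairs 1 copy was higher while the other was not called. Of those 52 other copies, 45 had a positive change, with a median log2 fold change of 0.15. The difference between the copies was tested directly, by fitting the log2 ratio of L to S over all pairs, an analysis added after the values had been seen. The ratio differed between Kmt2b MO and Ctrl MO embryos in 49 pairs (1.13%). Of these 49, 25 had a called copy, as did 67 of all 4331 pairs. Picking pairs by a call of 1 copy in itself favours a difference between the copies. Without Ctrl MO library II.2 or II.3 or Kmt2b MO library II.3 the number of pairs was 28, 31 or 31. Near-identical homeologs share reads, so the split of a pair between its copies is uncertain.

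The rhob pair had the smallest p for a change of ratio, and its copies moved in opposite directions. rhob.S was at 61.6, 63.4, 59.0, 63.5, 55.5 and 58.2 TPM in Kmt2b MO libraries, against 49.7, 49.2, 51.1, 42.1, 42.5 and 40.5 TPM in Ctrl MO libraries, a log2 fold change of 0.39 (SE 0.05, adjusted p 0.00236). Together with the fall of rhob.L this gave an L minus S difference of -0.73 (SE 0.06, adjusted p 1.17e-05). For mcl1, a Bcl2 family protein that opposes cell death, mcl1.S rose by 0.28 (adjusted p 0.0394, lost in 10 of the 12 fits that left out 1 library) and mcl1.L was at -0.22 (adjusted p 0.192), a difference of -0.50 (adjusted p 5.67e-05). As with rhob.L, mcl1.L was higher in Ctrl MO than in NI Ctrl embryos, by 0.77 (adjusted p 0.00235), and against NI Ctrl it was 0.55 higher in Kmt2b MO embryos (adjusted p 0.00051).

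Other pairs had 1 copy that changed beside one near zero. rack1.S was at 138.2 to 179.3 TPM in Kmt2b MO libraries and 126.0 to 170.6 TPM in Ctrl MO libraries, overlapping, with a log2 fold change of 0.05 (L minus S difference 0.58, SE 0.05, adjusted p 3.68e-05). upf3b.L was at -0.05 beside upf3b.S at 0.92, a difference of -0.97 (SE 0.13, adjusted p 0.00177). cdc25a.L, the far more abundant copy at 205.3 to 264.3 TPM in Kmt2b MO libraries and 225.9 to 271.3 TPM in Ctrl MO libraries, was at -0.08, a difference of -0.81 (SE 0.12, adjusted p 0.00312). The nme2 copies differed by 0.40 (adjusted p 0.0386), and the pim1 copies by 0.34 without passing the test (adjusted p 0.0938).

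**Figure D4:**
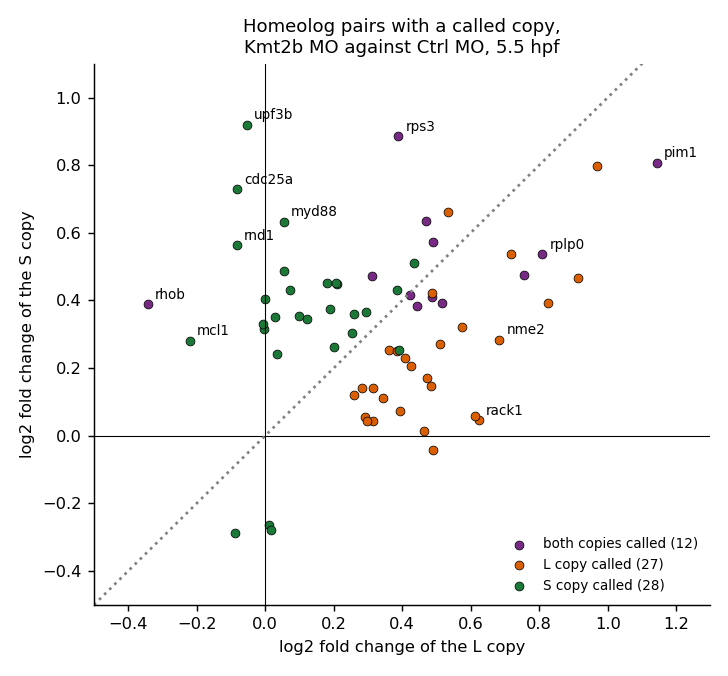
Log2 fold change of the S copy (vertical axis) against that of the L copy (horizontal axis), Kmt2b MO against Ctrl MO at 5.5 hpf, for the 67 homeolog pairs with at least 1 called copy, coloured by which copy was called; the dotted line marks equal change. Most points lie above 0 on both axes, upf3b, cdc25a and rnd1 lie near 0 for L and between 0.56 and 0.92 for S, and rhob lies at -0.34 for L and 0.39 for S.

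Within single biological replicates fewer genes passed. In the first, 8 of 18423 genes (0.0434%) were higher and 1 (0.00543%) was lower, and at an unadjusted p under 0.05 there were 464 higher and 663 lower. In the second, 45 of 19033 (0.236%) were higher and 6 (0.0315%) were lower, with 1169 and 200 unadjusted. All 115 genes called higher over both biological replicates had a positive change in each. They were picked by the fit over these same libraries, so this agreement in sign is no separate support. The ribosomal protein entries had a median log2 fold change of 0.31 in the first (2 called) and 0.23 in the second (7 called). A change that differed between the biological replicates was called for 1 of 17829 genes (0.00561%), against 824 at an unadjusted p under 0.05. With all 24 libraries at 5.5 hpf in the fit, 0 genes were called by limma (617 at an unadjusted p under 0.05), and the adjusted p of the 1 gene was 0.576. This gene, the lncRNA LOC121393761 (chromosome 5L, 99850779 to 99859873), was at 13.4, 8.22, 8.85, 11.4, 6.75 and 13.7 TPM in Kmt2b MO libraries, against 0, 0, 0, 13.4, 24.2 and 23.4 TPM in Ctrl MO libraries.

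Later embryos of the same clutches gave a separate set of libraries in which to look at the called genes. In Kmt2b MO against Ctrl MO embryos at 6.5 hpf, 195 of 18040 genes (1.08%) were higher and 83 (0.46%) lower, and at 7.5 hpf 360 of 17798 (2.02%) were higher and 191 (1.07%) lower. Of the 115 genes higher at 5.5 hpf, 55 (47.8%) were higher at 6.5 hpf and 65 (56.5%) at 7.5 hpf, and 0 were called lower at either time. Of the 8 lower genes, 5 were lower at 6.5 hpf and 4 at 7.5 hpf. Ribosomal protein entries were called higher in 20 cases and lower in 2 at 6.5 hpf, with a median log2 fold change of 0.09, and higher in 27 and lower in 1 at 7.5 hpf, with a median of 0.20. Between time points the differences were not tested.

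Among the named genes, some were called at all 3 times and others at 5.5 hpf alone. upf3b.S was at 0.92, 1.44 and 1.49 on the log2 scale at 5.5, 6.5 and 7.5 hpf, and pim1.L at 1.14, 1.35 and 0.91. The changes of rplp0.L were 0.81, 0.79 and 0.90. LOC108703372 stayed lower, at -1.75, -1.72 and -1.45, and rhob.L was at -0.34, -0.43 and -0.60, all called. ndufs4.L (0.83, 0.28 and 0.33) and rpl30.L (0.76, 0.17 and 0.41) were called at 5.5 hpf and not at the later times. ucp2.S was at -0.29, -0.20 and 0.10, likewise called at 5.5 hpf alone.

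**Figure D5:**
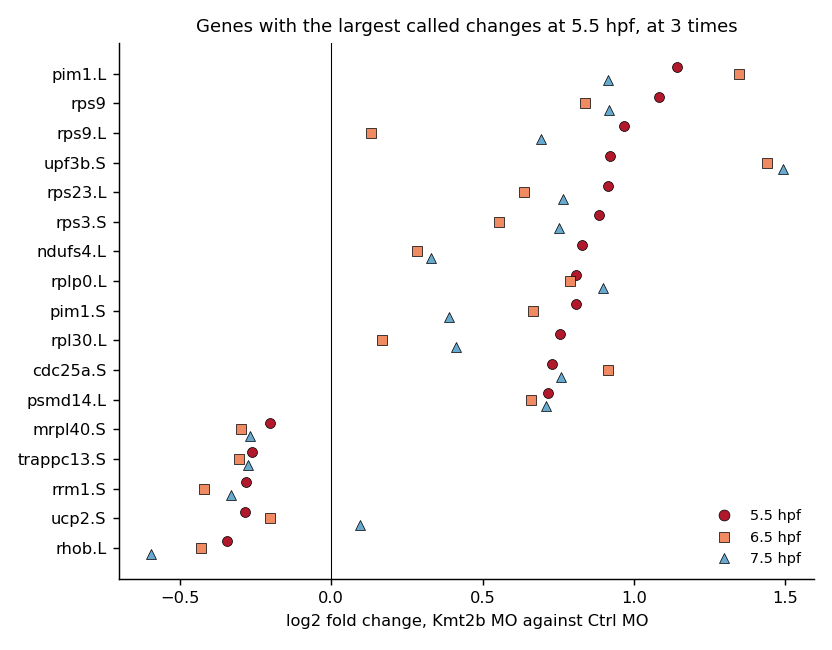
Log2 fold change of Kmt2b MO against Ctrl MO embryos (horizontal axis) of the 12 named genes with the largest called increases and the 5 with called decreases at 5.5 hpf (rows), shown at 5.5 (circles), 6.5 (squares) and 7.5 hpf (triangles). All points of the 12 upper genes are above 0, from 0.13 for rps9.L at 6.5 hpf to 1.49 for upf3b.S at 7.5 hpf, and ucp2.S crosses 0 at 7.5 hpf.

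Non-injected embryos served as a second control at 5.5 hpf. Kmt2b MO embryos had 88 of 17776 genes (0.495%) higher and 5 (0.0281%) lower than NI Ctrl embryos. Ctrl MO embryos had 3 of 17812 (0.0168%) higher and 0 (0%) lower, against 994 higher and 106 lower at an unadjusted p under 0.05. The comparisons with Ctrl MO and with NI Ctrl share the Kmt2b MO libraries, so their calls are not independent. Of the 115 genes higher against Ctrl MO, 54 were also called against NI Ctrl, and of the 8 lower genes 3 were. Against NI Ctrl, pim1.L had a log2 fold change of 1.21, upf3b.S 1.06, rps9 1.01 and nme2.L 0.62.

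The Cxxc1 knockdown, aimed at another CXXC protein of an H3K4 methyltransferase complex, used the same Ctrl MO libraries, so its values share their error with those above and are only set beside them. Of the 127 ribosomal protein entries, 35 were called higher in Kmt2b MO and 32 (25.2%) in Cxxc1 MO embryos, with median log2 fold changes of 0.27 and 0.28. Over all genes tested for Cxxc1 MO, 104 of 17891 (0.581%) were higher and 2 (0.0112%) were lower. Relative to these shared Ctrl MO libraries, ribosomal protein transcripts were higher in both knockdowns. Cxxc1 MO embryos were not tested against NI Ctrl embryos here. pim1.L was at 1.14 in Kmt2b MO and 0.85 in Cxxc1 MO embryos against Ctrl MO, upf3b.S at 0.92 and 0.98, and nme2.L at 0.68 and 0.60. For rps9 the values were 1.08 in Kmt2b MO and 0.84 in Cxxc1 MO embryos, for rhob.L -0.34 and -0.40, and for LOC108703372 -1.75 (adjusted p 0.000536) and -1.18 (adjusted p 0.0794). No test of Kmt2b MO against Cxxc1 MO embryos was made here.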

How the data were processed

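RNA was measured in whole embryos, and samples were grouped by the labels. The authors pseudoaligned the reads with kallisto 0.48 to Xenbase transcripts of assembly 10.1, summed isoforms with tximport and deposited TPM, 1 table per biological replicate. They tested counts with DESeq2 1.42.1 in R 4.3.2 (versions per the submitters' processing notes). The deposited TPM keep no read counts, so the depth is unknown and no count test or counting interval is given.

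Here, of 39668 entries, 2256 tRNA rows were dropped and TPM was rescaled to a sum of 1000000 per library. Names were matched to RefSeq (36670 of 37412 entries), which gave biotypes and coordinates. Genes averaging 1 TPM or more in each table were tested on log2(TPM + 1), which understates changes of low genes. Linear models were fitted in limma 3.58.1 (R 4.3.3) with moderated variances that follow a trend on the mean and with the biological replicate as a covariate, which left 9 residual degrees of freedom. Benjamini-Hochberg adjusted p-values under 0.05 were called. Pearson's r between libraries of a group ran from 0.961 to 0.98 across genes. The fit was tested on simulated data.

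Members and gene lists were chosen with earlier results of these data known. Named genes are kmt2b, cxxc1, pou5f3.2 and sox3 where analysed, and up to 12 called genes per direction with the largest change among those with a unique symbol, at least 5 TPM in a group and every Kmt2b MO library on one side of the Ctrl MO mean, filled up to 6 with the next genes where fewer were called. Others were picked after their values were seen. Alternatives were a pseudocount of 0.1, no filter, a minimum of 5 TPM, TPM as deposited, median centring, protein-coding genes only, a replicate block, 24 or 72 libraries in the fit, NI Ctrl as control, no variance trend, and leaving out each library. The homeolog ratio, the alternatives of the ribosomal protein count and the NI Ctrl comparisons without library II.3 were chosen after seeing the data. Promoter CpG content was not analysed here.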

Additional observations from a re-analysis of the deposited data

Results flagged for a closer look

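A lone library was looked for in 68 groups of 6 libraries. Chance alone triggers this check in about 1 in 20 groups of like libraries. Each group here pooled 2 biological replicates whose levels could differ, so a lone library may be missed. Of the 68 groups, 1 stood out. myd88.S was at 14.73 TPM in Kmt2b MO library II.3, while the other 5 Kmt2b MO libraries had 19.26 TPM or more, a gap of 0.741 of the range of the group. The lncRNA LOC121393761 changed differently in the 2 biological replicates: its log2 change in the second minus that in the first was -4.33 (SE 0.37, adjusted p 0.00156 for the interaction in limma), and it was listed at 0 in 3 Ctrl MO libraries of the first, so this size depends on the pseudocount. With 24 libraries in the fit the call was lost (adjusted p 0.576). No explanation was tested for either.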

How the results depend on the processing

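Main counts at 5.5 hpf were 115 genes higher, 8 lower and 35 ribosomal protein genes higher. Without a filter on low values they were 70, 5 and 23; with protein-coding genes only, 216, 21 and 60; without a variance trend, 72, 3 and 23. Lower genes were 17 with median centring, 13 with 72 libraries and 5 against NI Ctrl, where 10 ribosomal protein genes were higher. Leaving out 1 library gave from 62 to 170 higher genes, from 2 to 7 lower genes, from 19 to 43 ribosomal protein genes and from 28 to 51 homeolog pairs (49 with all). Within the first biological replicate, lower genes were 2 with a pseudocount of 0.1 and 0 with all 12 libraries fitted. Within the second, all 12 libraries gave 22 higher and 3 lower, and a minimum of 5 TPM gave 2 lower. The interaction gave 0 genes with 24 libraries (617 unadjusted). The replicate block left 60 higher, 4 lower and 22 ribosomal protein genes, 53 of the 60 being among the 115; ucp2.S lost its call (adjusted p 0.0537). Deviations of same-numbered sets had correlations from -0.06 to 0.12, so little pairing by number showed in these values. Whether such sets were collected or processed together was not tested. rhob.L reversed, to 0.24, against NI Ctrl. In every alternative fit over both biological replicates, the share of higher genes among calls stayed between 90.4% and 97.1%. No scaling moved the median of all genes by over 0.1. Of the tests of named genes under alternatives, 651 kept their side of the threshold, 100 lost it, 5 gained it and 1 reversed. Leaving out NI Ctrl library II.3 gave 76 genes for Kmt2b MO against NI Ctrl (93 with it) and 3 for Ctrl MO against NI Ctrl. The causes were not tested; fewer samples or genes enter some fits. Changes under 1.5-fold in 2 clutches, and RNA levels alone, limit what these libraries can show.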
